A study of Mus musculus with 16 samples.

Results

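The genes described here are 7 genes of skeletal muscle that are best known for their induction after the motor nerve is lost or the fibre is stressed: *Runx1*, *Ncam1*, *Gadd45a*, *Cdkn1a*, *Ankrd1*, *Mt1* and *Mt2*. They were chosen by name, with earlier results of these data known. Each was matched by its Entrez identifier to a row of the deposited count table. This gave 7 of the 24454 genes of that table. All 7 passed the filter on low counts. Their levels come from RNA-seq of the *gastrocnemius* of 16 mice aged 3 months, with a library for each mouse. HSALR mice carried the HSA transgene of line LR20b in homozygous form; 5 were given vehicle and 5 AICAR. The control mice were of the background strain FVB/N; 3 were given vehicle and 3 AICAR. The transgene carries long CTG repeats in a human skeletal actin gene, is expressed in skeletal muscle only, and serves as a model of myotonic dystrophy type I. AICAR is an activator of AMP-activated protein kinase and was given at 500 mg/kg for 7 days. No muscle of these 16 mice was labelled as denervated, so the name of the gene group describes what the genes are known for and not a treatment in this series.

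In innervated muscle, electrical activity keeps a set of genes silent along most of the fibre, and loss of the nerve releases them. The transcription factor RUNX1 and the adhesion molecule NCAM are classical members of that set. GADD45A and the cell cycle inhibitor p21, encoded by *Cdkn1a*, are induced in denervated and aged muscle and are also targets of p53. ANKRD1 is a titin-binding ankyrin repeat protein that rises with mechanical load and denervation. Metallothioneins 1 and 2, encoded by *Mt1* and *Mt2*, bind zinc and copper and respond to metals, glucocorticoids and oxidative stress. The expression of skeletal muscle fibre markers was checked first: the 6 markers (*Acta1*, *Ckm*, *Myh4*, *Tnnt3*, *Ttn*, *Mb*) were present in every mouse and summed to between 103700 and 160600 normalized CPM, the counts scaled to a common library size with TMM factors.

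The libraries held 64890014 to 81987726 counts, of which the 7 genes had between 187 (*Mt2*) and 11251 (*Ankrd1*) in a mouse. No library was a repeat of another in its group: the smallest chi-square over its degrees of freedom for a pair was 28.1, which includes the differences between animals. Epidermal keratin markers stood apart between mice: the 6 markers summed to between 16.5 and 166 normalized CPM in 4 of the 5 vehicle-treated HSALR mice and to 81.8 and 92.6 in 1 control mouse of each treatment (S450 after vehicle, S448 after AICAR), but to between 0.199 and 0.829 in the other 10 mice. Among these 10 were all 5 AICAR-treated HSALR mice. Their part in the results was examined only by adding an epidermis score to the model, as given beside the calls that it changed. In HSALR mice this score nearly followed the treatment, so the model could not separate the score from AICAR there. In whole muscle, fewer cells of a type and less RNA per cell cannot be told apart.

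In vehicle-treated mice, 5 of the 7 (*Runx1*, *Ncam1*, *Gadd45a*, *Cdkn1a* and *Ankrd1*) were higher in HSALR than in control muscle, by 2.24-fold to 7.25-fold, and the metallothioneins did not pass the test. For comparison, 15.4% of the 15487 genes tested were higher in this contrast and 11.5% lower. After AICAR, 1 of the 7 (*Ncam1*) was higher in HSALR than in control muscle, against 12.2% of all genes, with 9.64% lower. With DESeq2 this count was 4, where 3986 of 19992 genes were called in either direction, and it was also 4 without the mouse S462. AICAR lowered 3 of the 7 in HSALR muscle (*Gadd45a*, *Cdkn1a* and *Ankrd1*; 13.0% of all genes were lower) and raised 2 (*Mt1* and *Mt2*; 13.7% of all genes were higher). In control muscle AICAR raised 3 of the 7 (*Runx1*, *Mt1* and *Mt2*; 8.40% of all genes were higher), and none was lower (4.77% of all genes). The AICAR effect was lower in HSALR than in control muscle for 1 of the 7 (*Runx1*), against 0.484% of all genes. This call was lost in 12 of 16 fits that left out a mouse, with limma voom and with an epidermis score. The contrasts share groups of mice, so their values are set side by side and are not independent of each other. Where groups are said below not to overlap, this describes single genes, and the share of all genes without overlap is not given. In GENCODE an antisense or overlapping gene lies over 5 of the 7 (not *Ankrd1* or *Mt1*), and whether the counting used the strand was not stated, so reads of such a partner may be included.

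**Figure D1:**
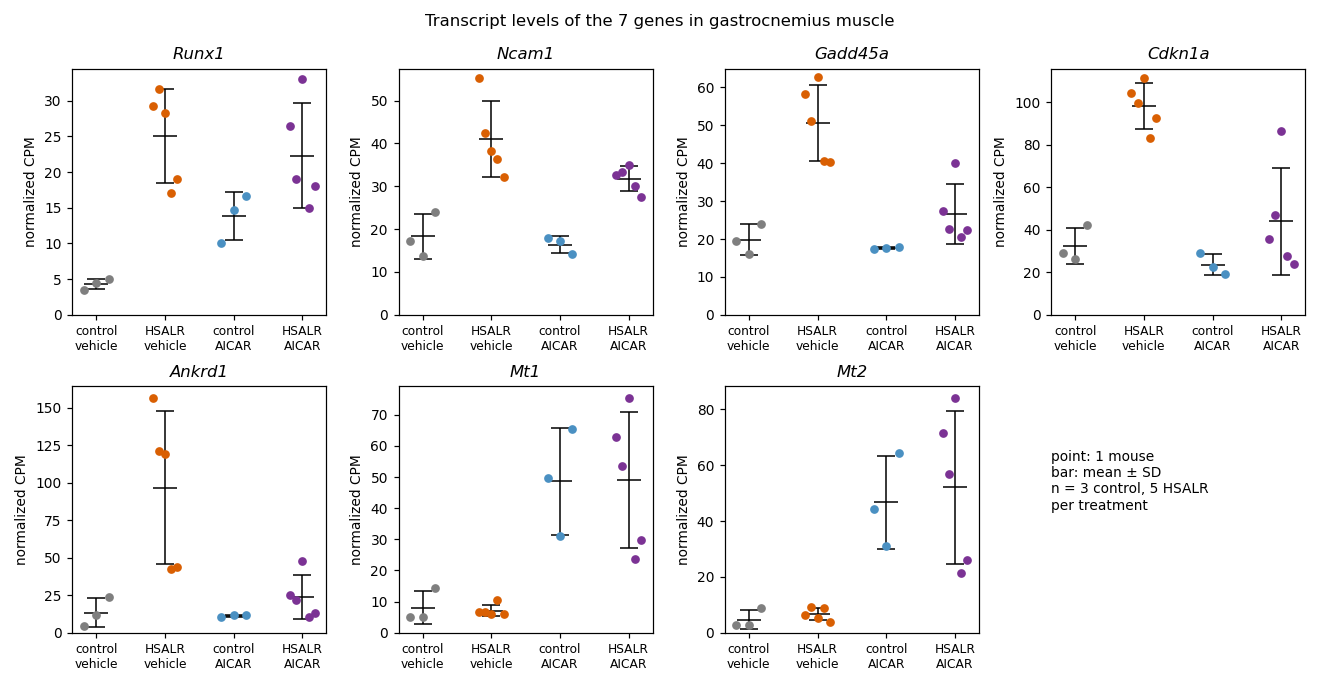
Normalized CPM of the 7 genes (y axis, linear, from 0) in each mouse (points) of the 4 groups, with mean and SD as bars; n = 3 control and 5 HSALR mice per treatment. *Runx1*, *Ncam1*, *Gadd45a*, *Cdkn1a* and *Ankrd1* are higher in vehicle-treated HSALR than in vehicle-treated control mice with no overlap. *Mt1* and *Mt2* are higher in the AICAR-treated mice of both genotypes. The share of all genes without overlap is not given.

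**Figure D2:**
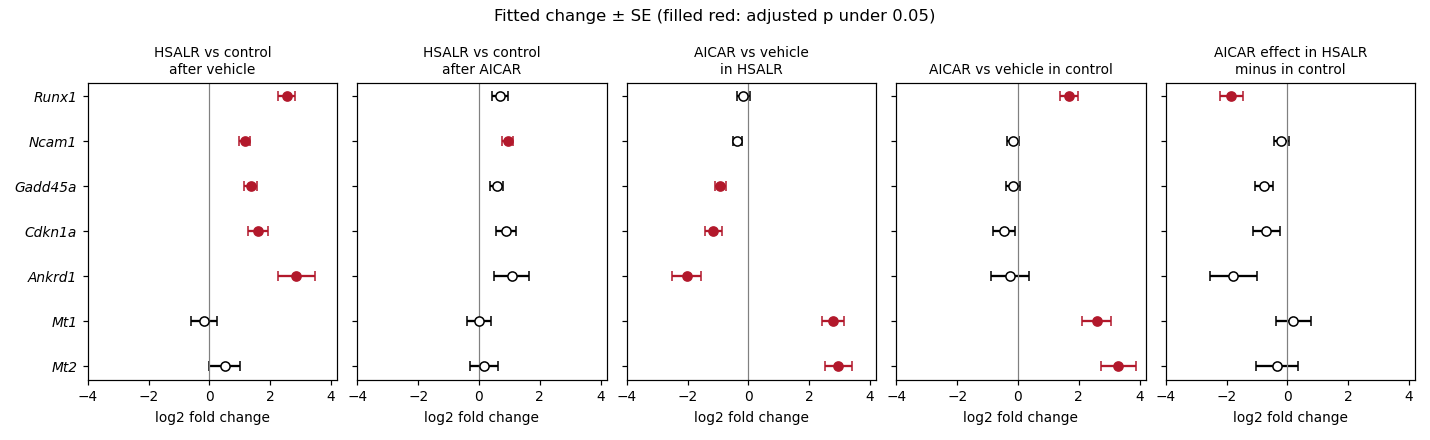
Log2 fold change ± SE of the 7 genes from edgeR's model (x axis) in the 4 contrasts between groups and for the difference between the AICAR effects; filled red points have an adjusted p under 0.05. The genotype effect after vehicle is largest for *Ankrd1* (2.86) and *Runx1* (2.54), and the AICAR effects on *Mt1* and *Mt2* lie between 2.60 and 3.31 in both genotypes.

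*Runx1* (Entrez 12394, chromosome 16, positions 92601466 to 92826074 of GRCm38, minus strand) encodes a DNA-binding factor that is scarce in innervated muscle and is known to limit wasting of denervated fibres. Its level was 3.51, 4.45 and 4.99 normalized CPM in the vehicle-treated control mice. It was 29.3, 31.7, 28.3, 17.1 and 19.1 in the vehicle-treated HSALR mice. Every HSALR mouse was thus above every control mouse, and the lowest HSALR mice (S458 and S459) were also the lowest pair for *Ncam1*, *Gadd45a*, *Cdkn1a* and *Ankrd1*. The means were 4.32 ± 0.745 (SD, n = 3) and 25.1 ± 6.55 (SD, n = 5), a log2 fold change of 2.54 ± 0.29 (SE; edgeR quasi-likelihood test, adjusted p = 1.92e-05).

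After AICAR, *Runx1* was at 10.1, 14.6 and 16.7 normalized CPM in control mice. All 3 were above the vehicle-treated control mice, and the log2 fold change was 1.68 ± 0.30 (adjusted p = 0.00257). In AICAR-treated HSALR mice it was 26.4, 19.0, 33.0, 15.0 and 18.1, which overlapped with both the vehicle-treated HSALR mice and the AICAR-treated control mice. AICAR changed it by a log2 value of -0.17 ± 0.22 in HSALR muscle (adjusted p = 0.62), and the difference between genotypes after AICAR was 0.69 ± 0.26 (adjusted p = 0.0725). The AICAR effect differed between genotypes, with a log2 difference of -1.85 ± 0.38 (adjusted p = 0.0355). This call was lost when any of 12 of the 16 mice was left out, with adjusted p between 0.0544 and 0.116; it was kept without S447, S458, S459 or S460, with adjusted p between 0.00812 and 0.0471. It was also lost with the epidermis score in the model (-1.79, adjusted p = 0.0761) and with limma voom (-1.84, adjusted p = 0.0808). The difference was -2.03 to -1.69 over the 16 fits that left out a mouse. Over all genes, 107 had such a call in the fit given here, 59 with the score and 84 with voom. Leukocytes express *Runx1* too, and the 6 leukocyte markers summed to 27.6 to 40.3 normalized CPM in vehicle-treated control mice, 33.9 to 47.1 in vehicle-treated HSALR mice, 32.2 to 37.2 in AICAR-treated control mice and 32.9 to 57.4 in AICAR-treated HSALR mice. Of these 6, 1 was higher in HSALR than in control mice after vehicle (15.4% of all genes) and none differed between treatments. None was at 0 except 1 marker in 1 or more AICAR-treated control mice, and their part in the *Runx1* values was not tested.

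The other RUNX genes did not pass the test in any contrast. CBF beta, the shared partner that RUNX proteins need for stable DNA binding, was lower in HSALR muscle: *Cbfb* was at 221 normalized CPM in vehicle-treated control mice and at 124 in vehicle-treated HSALR mice on average, with a log2 fold change of -0.83 ± 0.13 (adjusted p = 0.000219). After AICAR the same contrast gave -0.81 ± 0.13 (adjusted p = 0.000425). *Runx1* and *Cbfb* thus moved in opposite directions between the genotypes after vehicle. The median log2 fold change of the 3 genes of this list (*Cbfb*, *Runx2*, *Runx3*) was -0.077 after vehicle, against 0.0097 for all genes.

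*Ncam1* (Entrez 17967, chromosome 9, positions 49502129 to 49799393, minus strand) encodes the neural cell adhesion molecule, which in adult muscle is found mostly at the endplate and on satellite cells and spreads over the fibre after denervation. It was at 17.2, 13.7 and 24.0 normalized CPM in vehicle-treated control mice. In vehicle-treated HSALR mice it was at 55.4, 42.4, 38.3, 36.4 and 32.2, all above the controls. The log2 fold change was 1.16 ± 0.18 (adjusted p = 0.000262). After AICAR it was at 17.9, 17.1 and 14.1 in control mice. It was at 32.7, 33.2, 35.1, 30.1 and 27.6 in HSALR mice, again all above the controls and with the smallest relative spread of the 7 genes in that group, 1.27-fold from the lowest to the highest mouse. The log2 fold change was 0.95 ± 0.18 (adjusted p = 0.00179), and *Ncam1* was the member called in this contrast. AICAR gave -0.37 ± 0.15 in HSALR muscle (adjusted p = 0.082; with scaling to *Tbp* -0.47 and 0.0406, without S459 -0.44 and 0.0451) and -0.16 ± 0.20 in control muscle (adjusted p = 0.636).

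Polysialic acid is added to NCAM by 2 polysialyltransferases. *St8sia2*, which encodes the enzyme best known from developing tissue, was at 0.638 normalized CPM in vehicle-treated control mice and 2.68 in vehicle-treated HSALR mice on average. It was higher by a log2 value of 2.07 ± 0.28 (adjusted p = 8.37e-05) after vehicle and 1.64 ± 0.29 (adjusted p = 0.00101) after AICAR, and AICAR lowered it in HSALR muscle (-0.97 ± 0.22, adjusted p = 0.00498). Among the 4 tested genes of this list, *St8sia2* was the 1 gene higher in each genotype contrast. Of all genes, 15.4% were higher after vehicle and 12.2% after AICAR. *Ncam2*, with 69 counts over all mice, did not pass the filter. *Fgfr1*, a receptor that NCAM can bind, was lower after AICAR in HSALR muscle (-0.30 ± 0.10, adjusted p = 0.0392). The list's median was -0.00025 for the genotype after vehicle and -0.10 for AICAR in HSALR muscle, against 0.0097 and -0.020 for all genes.

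Satellite and Schwann cells also carry NCAM. The 5 satellite cell markers summed to 20.1 to 21.9 normalized CPM in vehicle-treated control and 20.2 to 27.9 in vehicle-treated HSALR mice, and to 22.9 to 29.3 and 25.5 to 28.5 after AICAR. Of these 5, 1 was higher in HSALR mice after vehicle and 2 were higher after AICAR (15.4% and 12.2% of all genes), and their median log2 fold change was 0.94 after vehicle and 0.84 after AICAR, against 0.0097 and 0.0037 for all genes. Between treatments 1 was higher and 1 lower after AICAR in each genotype. Of all genes, 13.7% were higher and 13.0% lower in HSALR muscle, and 8.40% and 4.77% in control muscle. The 5 Schwann cell and nerve markers summed to 60.5 to 109 and 41.6 to 108 after vehicle, and to 43.0 to 119 and 34.4 to 67.4 after AICAR. After vehicle none of them was higher and 1 lower in HSALR mice (15.4% and 11.5% of all genes). No marker of either list was at 0 in any mouse, and the part of these cells in the *Ncam1* values was not tested.

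*Gadd45a* (Entrez 13197, chromosome 6, positions 67035096 to 67037407, minus strand) encodes a stress-induced nuclear protein that is known to promote atrophy when raised in fibres. Vehicle-treated control mice had 19.5, 15.9 and 24.0 normalized CPM. Vehicle-treated HSALR mice had 58.2, 51.2, 62.7, 40.6 and 40.4, without overlap. After AICAR the values were 17.4, 17.7 and 17.9 in control mice and 27.5, 22.8, 40.1, 20.4 and 22.3 in HSALR mice. Every AICAR-treated HSALR mouse was below every vehicle-treated HSALR mouse and above every AICAR-treated control mouse. The log2 fold change between genotypes was 1.35 ± 0.21 after vehicle (adjusted p = 0.000303) and 0.59 ± 0.21 after AICAR (adjusted p = 0.0565). AICAR lowered *Gadd45a* in HSALR muscle by a log2 value of -0.93 ± 0.18 (adjusted p = 0.00148), whereas the value in control muscle was -0.16 ± 0.23 (adjusted p = 0.695). The difference between these effects, -0.76 ± 0.29, did not pass the test (adjusted p = 0.238). Without the HSALR mouse S460 it was -0.96 and passed (adjusted p = 0.0416).

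*Cdkn1a* (Entrez 12575, chromosome 17, positions 29090979 to 29100722, plus strand) was at 28.9, 26.3 and 42.3 normalized CPM in vehicle-treated control mice. In vehicle-treated HSALR mice it was at 104, 99.7, 111, 83.1 and 92.6, and every HSALR mouse was above every control mouse. The log2 fold change was 1.60 ± 0.34 (adjusted p = 0.0027). After AICAR, control mice had 29.0, 22.6 and 19.2, and HSALR mice 35.5, 46.7, 86.2, 27.5 and 23.9. The HSALR mouse S460, at 86.2, lay within the range of the vehicle-treated HSALR mice, and the other 4 lay below that range. AICAR lowered *Cdkn1a* in HSALR muscle by a log2 value of -1.16 ± 0.28 (adjusted p = 0.00658). With the epidermis score in the model this was -1.03 and the call was lost (adjusted p = 0.0664). The score nearly followed the treatment in HSALR mice, and the calls among all genes in this contrast fell from 4121 to 2154 with it. In control muscle the change was -0.46 ± 0.36 (adjusted p = 0.432), and between genotypes after AICAR it was 0.90 ± 0.33 (adjusted p = 0.0631).

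Of the relatives *Gadd45b*, *Gadd45g*, *Cdkn1b* and *Cdkn1c*, 1 was higher in HSALR muscle after vehicle (15.4% of all genes): *Cdkn1c*, which encodes the inhibitor p57, with a log2 fold change of 0.46 ± 0.073 (adjusted p = 0.000313). AICAR lowered *Cdkn1c* by a log2 value of -0.89 ± 0.063 in HSALR muscle (adjusted p = 3.29e-07) and -0.29 ± 0.081 in control muscle (adjusted p = 0.0279), and these effects differed (-0.60 ± 0.10, adjusted p = 0.0238). *Gadd45g* fell after AICAR in control muscle (-2.36 ± 0.61, adjusted p = 0.0198), from 50.2 ± 38.9 to 9.80 ± 3.04 normalized CPM (SD, n = 3), with a wide spread between the vehicle-treated mice. AICAR lowered 1 of the 4 in HSALR muscle (13.0% of all genes) and 2 of the 4 in control muscle (4.77% of all genes). The list's median was -0.12 for the genotype after vehicle and -0.65 for AICAR in HSALR muscle.

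Among 12 other p53 targets, 3 were higher and 2 lower in HSALR muscle after vehicle (15.4% and 11.5% of all genes), with a median log2 fold change of 0.080. *Eda2r*, a receptor of the TNF family, was at 26.0 normalized CPM in control and 204 in HSALR mice on average (log2 fold change 2.98 ± 0.23, adjusted p = 5.24e-07). *Phlda3*, an inhibitor of AKT, was at 35.8 and 128 (1.84 ± 0.14, adjusted p = 5.24e-07). AICAR lowered *Eda2r* in HSALR muscle (-1.01 ± 0.18, adjusted p = 0.0008) but raised *Phlda3* (0.59 ± 0.12, adjusted p = 0.00175), so these 2 genes with the largest genotype effects moved in opposite directions under AICAR. *Bax*, a pro-apoptotic gene, was higher in HSALR muscle by 0.32 ± 0.076 (adjusted p = 0.00572), and *Sesn1*, which encodes a stress sensor, was lower (-0.50 ± 0.18, adjusted p = 0.0489). For AICAR in HSALR muscle, 4 of the 12 were higher and 2 lower (13.7% and 13.0% of all genes), with a median of 0.055.

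The bases before the start of *Cdkn1a* are shown because *Cdkn1a* and *Gadd45a*, both known p53 targets, moved in the same directions. The sequences come from RefSeq's GRCm38.p6 annotation, in which 6 of the 7 genes had a window, *Runx1* and *Cdkn1a* each for 2 starts; there was no entry for *Ncam1*. The 250 bases before each start were searched on both strands for the p53 decamer, which reads the same on either strand and was counted once. Matches are in capitals. The window of the upstream *Cdkn1a* start (chr17:29090729-29090978, plus strand) held 2, beginning 73 and 51 bases before the start, and 0.259% of the 32851 windows of that length held at least 2.
Cdkn1a: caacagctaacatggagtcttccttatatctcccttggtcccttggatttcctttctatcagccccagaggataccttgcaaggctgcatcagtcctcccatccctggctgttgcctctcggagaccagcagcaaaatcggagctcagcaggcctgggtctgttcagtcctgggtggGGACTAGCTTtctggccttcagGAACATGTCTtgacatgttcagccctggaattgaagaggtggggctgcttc
*Gadd45a* held 1, beginning 40 bases before its start, shown with its flanks (chr6:67037428-67037457, minus strand), and 50 of the 250 bases of its window lie in an annotated exon; 7.13% of windows held at least 1.
Gadd45a: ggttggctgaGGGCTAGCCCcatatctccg
The other windows, those of *Mt1*, *Mt2*, *Runx1*, *Ankrd1* and the downstream *Cdkn1a* start, held none. A match describes these letters and not binding of p53.

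*Ankrd1* (Entrez 107765, chromosome 19, positions 36111965 to 36119844, minus strand) had the largest genotype effect of the 7 genes and a wide spread between mice. Vehicle-treated control mice had 4.71, 11.8 and 23.5 normalized CPM. Vehicle-treated HSALR mice had 157, 121, 119, 42.6 and 43.9, so that S451, S452 and S453 lay well above S458 and S459, while all 5 lay above the controls. The means were 13.3 ± 9.51 (SD, n = 3) and 96.8 ± 51.1 (SD, n = 5), a log2 fold change of 2.86 ± 0.61 (adjusted p = 0.00295). Without the control mouse S450 it was 3.55 (adjusted p = 0.00283). After AICAR, *Ankrd1* was at 10.2, 11.7 and 11.6 in control mice. It was at 25.0, 22.1, 47.6, 10.4 and 12.8 in HSALR mice, where 4 of the 5 were above all AICAR-treated controls and 4 of the 5 were below all vehicle-treated HSALR mice. AICAR lowered it in HSALR muscle by a log2 value of -2.04 ± 0.48 (adjusted p = 0.00607). The change in control muscle was -0.26 ± 0.62 (adjusted p = 0.834). It had no stable direction, at 0.0167 with voom and -0.66 to 0.43 with a mouse left out. The difference between genotypes after AICAR was 1.08 ± 0.57 (adjusted p = 0.189), and the difference between the AICAR effects was -1.78 ± 0.78 (adjusted p = 0.297).

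The 5 genes listed with *Ankrd1*, muscle ankyrin repeat proteins and partners at titin, had 1 higher and 3 lower in HSALR muscle after vehicle (15.4% and 11.5% of all genes), with a median of -0.30. After AICAR 2 were higher and none lower (12.2% and 9.64% of all genes), with a median of 0.097. *Csrp3*, which encodes the muscle LIM protein of the Z-disc, was at 135 normalized CPM in control and 352 in HSALR mice on average (log2 fold change 1.38 ± 0.33, adjusted p = 0.00577). Like *Ankrd1*, it was lower after AICAR in HSALR muscle (-1.04 ± 0.27, adjusted p = 0.0109). The related ankyrin repeat gene *Ankrd23* (-0.46 ± 0.14, adjusted p = 0.0247), titin itself (*Ttn*, -0.78 ± 0.23, adjusted p = 0.0216) and the protease gene *Capn3* (-0.30 ± 0.074, adjusted p = 0.00753) were lower in HSALR muscle after vehicle.

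*Ankrd1* is also a known target of the YAP and TAZ coactivators, which act through TEAD factors at the M-CAT motif. Of the other 5 targets listed, after vehicle none passed the test as higher in HSALR muscle (15.4% of all genes). Lower there was 1 (11.5% of all genes), *Amotl2* (-0.69 ± 0.20, adjusted p = 0.0193). After AICAR 1 of the 5 was higher in HSALR than in control muscle and none lower (12.2% and 9.64% of all genes). This was *Ccn1* (1.26 ± 0.22, adjusted p = 0.0008). AICAR lowered 3 of the 5 in HSALR muscle (median -0.64, against 13.0% of all genes lower) and 3 of the 5 in control muscle (median -1.05, against 4.77% of all genes lower). The matricellular gene *Ccn1* fell from 40.5 to 9.91 normalized CPM on average in control muscle (-2.03 ± 0.24, adjusted p = 9.97e-05) and from 52.7 to 23.8 in HSALR muscle (-1.15 ± 0.18, adjusted p = 0.000298). *Ccn2*, of the same family, fell by -1.42 ± 0.30 in control muscle (adjusted p = 0.00594) and -1.06 ± 0.23 in HSALR muscle (adjusted p = 0.00348). *Ankrd1* passed the test for AICAR in HSALR and not in control muscle, and the test of the difference between these effects did not pass.

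The M-CAT letters CATTCC, searched on both strands, were found at 2 places before the start of *Ankrd1*, and 1.02% of all windows held at least 2. Both stretches are shown in the direction of the gene, with the match in capitals, since this motif is the known site of the factors named above. They begin 210 and 123 bases before the start (chr19:36120037-36120066 and chr19:36119950-36119979, minus strand). All 250 bases of this window also lie in an annotated exon.
Ankrd1, distal: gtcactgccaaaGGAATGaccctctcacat
Ankrd1, proximal: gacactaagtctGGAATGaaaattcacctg
Of the other windows, that of the downstream start of *Runx1* held 1, and 12.6% of all windows held at least 1.

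*Mt1* (Entrez 17748, positions 94178883 to 94180327) and *Mt2* (Entrez 17750, positions 94172618 to 94173567) lie next to each other on the plus strand of chromosome 8, 5315 bases apart, and encode the metallothioneins found in most tissues. Both passed the test for AICAR in each genotype and did not pass it between genotypes. *Mt1* was at 4.89, 5.08 and 14.2 normalized CPM in vehicle-treated control mice and at 6.64, 6.62, 5.97, 10.4 and 5.85 in vehicle-treated HSALR mice. After AICAR it was at 49.6, 31.0 and 65.4 in control mice and at 62.8, 53.5, 75.5, 23.8 and 29.7 in HSALR mice. Every AICAR-treated mouse was above every vehicle-treated mouse. The log2 fold change for AICAR was 2.60 ± 0.47 in control muscle (adjusted p = 0.00263) and 2.79 ± 0.37 in HSALR muscle (adjusted p = 9.4e-05).

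*Mt2* was at 2.66, 2.68 and 8.83 normalized CPM in vehicle-treated control mice and at 6.19, 9.05, 5.35, 8.99 and 3.88 in vehicle-treated HSALR mice. After AICAR it was at 44.4, 31.2 and 64.5 in control mice and at 71.6, 57.0, 84.1, 21.4 and 26.2 in HSALR mice. As for *Mt1*, the treatments did not overlap in either genotype, and in both treatments the genotypes did. The log2 fold change for AICAR was 3.31 ± 0.58 in control muscle (adjusted p = 0.00196) and 2.96 ± 0.44 in HSALR muscle (adjusted p = 0.000224). The AICAR effects did not pass the test of a difference between genotypes, which gave 0.19 ± 0.57 for *Mt1* (adjusted p = 0.909) and -0.35 ± 0.68 for *Mt2* (adjusted p = 0.856). Between genotypes after vehicle, *Mt1* gave -0.18 ± 0.41 (adjusted p = 0.791) and *Mt2* 0.51 ± 0.50 (adjusted p = 0.505). After AICAR these were 0.01 ± 0.39 (adjusted p = 0.988) and 0.16 ± 0.46 (adjusted p = 0.838). The control mouse S450 was highest of its group for both genes. Without it the AICAR effect in control muscle was 3.29 for *Mt1* and 4.13 for *Mt2*, and *Mt1* changed sign between genotypes after vehicle (0.51, adjusted p = 0.418).

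The 2 metallothionein genes rose together from mouse to mouse, but not in a fixed ratio. *Mt1* took 64.8%, 65.5% and 61.7% of the counts of both genes in vehicle-treated control mice. In the other groups its share was lower in the mean: 51.7%, 42.2%, 52.8%, 53.7% and 60.1% in vehicle-treated HSALR mice, 52.8%, 49.9% and 50.3% in AICAR-treated control mice, and 46.8%, 48.4%, 47.3%, 52.6% and 53.1% in AICAR-treated HSALR mice. All 5 vehicle-treated HSALR mice were below all 3 controls, and so were all 3 AICAR-treated control mice. The difference in means was -11.9 percentage points between genotypes after vehicle (exact two-sided p = 0.0357 by permutation, the smallest that 5 against 3 mice allow; adjusted over the 4 contrasts p = 0.143). It was -13.0 points for AICAR in control mice (exact p = 0.1, the smallest that 3 against 3 allow; adjusted p = 0.2). For AICAR in HSALR mice it was -2.49 points (exact p = 0.468, adjusted p = 0.468) and between genotypes after AICAR -1.38 points (exact p = 0.464, adjusted p = 0.468). None passed the threshold after adjustment. The transcripts of the 2 genes in GENCODE share no run of bases longer than 20.

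**Figure D3:**
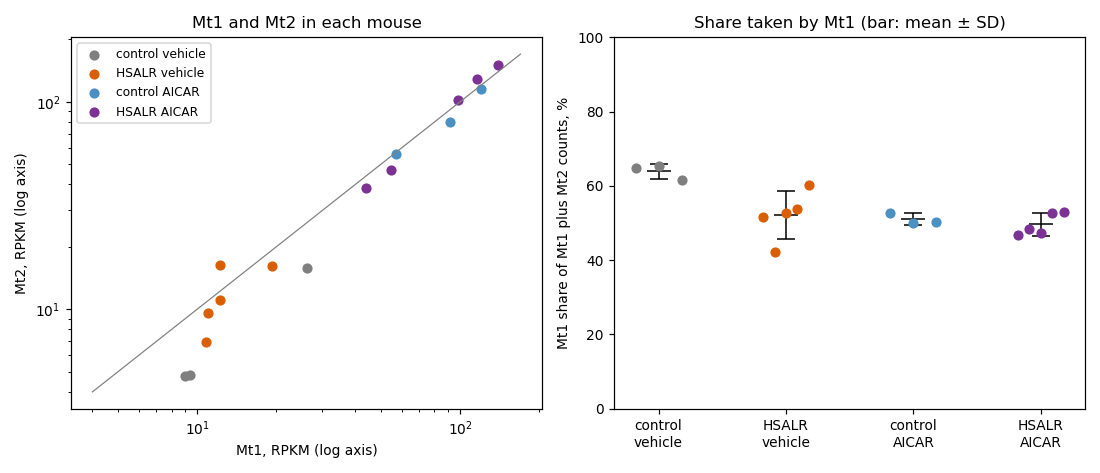
Left, *Mt2* against *Mt1* in each of the 16 mice (RPKM, log axes; the line marks equal levels); right, the share of *Mt1* in the counts of both genes (percent, mean ± SD, n = 3 control and 5 HSALR mice per treatment). AICAR-treated mice of both genotypes lie near the line of equal levels, while vehicle-treated control mice, with 61.7% to 65.5% *Mt1*, lie below it.

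The 250 bases before the start of *Mt2* and a stretch before that of *Mt1* are shown because the genes rose together and metal response elements are known in both promoters. The core letters TGCACNC and TGCGCNC were searched on both strands, and matches are in capitals. *Mt2* held 3 (chr8:94172368-94172617, plus strand), beginning 223, 128 and 50 bases before the start; all 250 bases also lie in an annotated exon, that of the antisense gene *Gm45774*. Of all windows, 1.26% held at least 3.
Mt2: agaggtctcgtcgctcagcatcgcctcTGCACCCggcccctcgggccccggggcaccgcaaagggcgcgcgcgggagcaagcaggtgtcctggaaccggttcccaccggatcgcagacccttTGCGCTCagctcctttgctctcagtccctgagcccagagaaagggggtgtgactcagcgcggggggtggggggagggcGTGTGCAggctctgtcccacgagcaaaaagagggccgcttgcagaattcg
*Mt1* held 1 (chr8:94179055-94179084, plus strand), beginning 23 bases before the start that RefSeq's table gives, and 21.4% of all windows held at least 1. That start lies inside the gene interval given above, GENCODE lists further *Mt1* transcripts that start downstream of it, and the bases before other starts were not searched.
Mt1: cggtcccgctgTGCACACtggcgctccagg
The windows of the other 4 genes with an entry held none. No matches of different motifs overlapped.

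Of 6 other genes of metal handling (*Mt3*, *Mt4*, *Mtf1*, *Slc30a1*, *Slc39a10*, *Slc39a14*), 1 rose after AICAR in HSALR muscle (13.7% of all genes). This was the zinc importer gene *Slc39a14* (0.57 ± 0.18, adjusted p = 0.0269). None passed the test in control muscle, where *Slc39a14* gave 0.47 ± 0.23 (adjusted p = 0.187). The difference between its AICAR effects did not pass the test (0.10 ± 0.29, adjusted p = 0.909). The list's medians were -0.053 and 0.34, against -0.020 and -0.0084 for all genes. *Mt3*, the brain-type metallothionein, was at 0.629 normalized CPM in vehicle-treated control and 2.29 in vehicle-treated HSALR mice on average (1.86 ± 0.38, adjusted p = 0.00229). Of 6 glucocorticoid-induced genes, 3 were higher after AICAR in HSALR muscle (median 0.47; 13.7% of all genes) and 1 in control muscle (median 0.39; 8.40% of all genes). *Fkbp5*, a co-chaperone gene, rose in HSALR muscle (1.84 ± 0.32, adjusted p = 0.00071), as did *Tsc22d3* (0.47 ± 0.12, adjusted p = 0.00959). In control muscle they gave 1.03 ± 0.40 (adjusted p = 0.101) and 0.33 ± 0.16 (adjusted p = 0.174). The differences between these effects did not pass the test (adjusted p = 0.478 and 0.784). *Zbtb16*, a zinc finger repressor gene, rose in both HSALR (0.73 ± 0.18, adjusted p = 0.00691) and control muscle (1.11 ± 0.23, adjusted p = 0.00577). *Cebpd* was lower in HSALR than in control muscle after vehicle (-1.48 ± 0.48, adjusted p = 0.0314), but its SD in the 3 vehicle-treated control mice (26.1 normalized CPM) exceeded their mean (23.8).

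Genes of denervation outside the 7 were compared with them from lists that were chosen with earlier results of these data known. Of 9 endplate and myogenin genes, 3 were higher in HSALR muscle after vehicle (median 0.65) and none was lower, against 15.4% and 11.5% of all genes. The acetylcholine receptor subunit gene *Chrna1* was at 28.6 normalized CPM in control and 67.6 in HSALR mice on average (1.24 ± 0.17, adjusted p = 6.6e-05). *Musk*, the endplate kinase gene, was at 20.6 and 55.4 (1.43 ± 0.26, adjusted p = 0.000854). *Myog*, the gene of the myogenic factor myogenin, was at 14.0 and 24.2 (0.78 ± 0.21, adjusted p = 0.0109). After AICAR 2 of the 9 were higher in HSALR than in control muscle and none lower (12.2% and 9.64% of all genes). These were *Chrna1* (1.42 ± 0.17, adjusted p = 3.88e-05) and *Hdac4* (0.70 ± 0.18, adjusted p = 0.0115). AICAR lowered *Myog* in HSALR (-1.37 ± 0.18, adjusted p = 8.01e-05) and control muscle (-1.02 ± 0.23, adjusted p = 0.00931), whereas it raised *Musk* in control muscle (1.02 ± 0.28, adjusted p = 0.0247) as it raised *Runx1* there. For AICAR in HSALR muscle 1 of the 9 was higher, *Hdac4* (0.73 ± 0.15, adjusted p = 0.00249), and 3 were lower (13.7% and 13.0% of all genes), with a median of -0.52 against -0.020 for all genes.

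The atrophy ubiquitin ligases did not rise with the 5 genes that were higher in HSALR muscle. None of the 3 (*Fbxo32*, *Trim63*, *Fbxo30*) passed the test between genotypes after either treatment, and *Fbxo32*, which encodes atrogin-1, was at 539 normalized CPM in vehicle-treated control and 325 in vehicle-treated HSALR mice on average (-0.73 ± 0.28, adjusted p = 0.0665). AICAR raised *Fbxo32* in HSALR muscle (1.55 ± 0.25, adjusted p = 0.000483). Of 5 genes listed as repressed after denervation, 2 were lower in HSALR muscle after vehicle (11.5% of all genes), *Actc1* (-3.15 ± 0.32, adjusted p = 5.43e-06) and the corepressor gene *Dach2* (-0.91 ± 0.33, adjusted p = 0.0495), with a median of -0.34. *Actc1* encodes the cardiac actin of developing muscle, and it had a wide spread in vehicle-treated control mice (111 ± 67.3 normalized CPM, SD, n = 3). After AICAR 2 of the 5 were lower in HSALR than in control muscle (9.64% of all genes). These were *Actc1* (-2.58 ± 0.32, adjusted p = 6.17e-05) and the fast myosin gene *Myh4* (-0.67 ± 0.18, adjusted p = 0.0177).

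Levels of different genes were compared per length, in RPKM. In every mouse *Runx1* and *Ncam1* were the 2 lowest of the 7 genes. In vehicle-treated control mice the group means ran from 0.585 for *Runx1* and 1.87 for *Ncam1* to 16.2 for *Gadd45a*, and *Gadd45a*, *Cdkn1a* (15.9) and *Mt1* (14.9) overlapped. In vehicle-treated HSALR mice *Ankrd1* was highest in the mean (54.8 ± 28.9 SD, n = 5), followed by *Cdkn1a* (48.2 ± 5.32) and *Gadd45a* (41.3 ± 8.25), and these 3 overlapped. *Ankrd1* ranked above *Cdkn1a* in S451, S452 and S453 and below it in S458 and S459. After AICAR *Mt1* and *Mt2* were the 2 highest in all 8 mice, with means of 89.8 and 84.0 in control and 90.5 and 93.7 in HSALR mice, which overlapped.

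In some groups the same mouse was highest or lowest for several of the 7 genes. S450 had the highest level of all 7 genes among the 3 vehicle-treated control mice, and S460 the highest of all 7 among the 5 AICAR-treated HSALR mice. S462 was lowest of its group for 5 genes and S463 for the other 2. Among vehicle-treated HSALR mice S458 and S459 held the 2 lowest places for *Runx1*, *Ncam1*, *Gadd45a*, *Cdkn1a* and *Ankrd1*, while S458 had the highest *Mt1*. The AICAR-treated control mice were mixed: S447 was highest for 2 genes and lowest for 3, S448 for 1 and 2, and S449 for 4 and 2. The spread from the lowest to the highest mouse reached 5.00-fold for *Ankrd1* in vehicle-treated control mice and was 1.03-fold for *Gadd45a* in AICAR-treated control mice. S450 also had the epidermal markers of its group at the highest sum (81.8 normalized CPM), whereas S460 had them at 0.228; their part in the levels of these mice was not tested. Without S460, the AICAR effect in HSALR muscle was -2.46 for *Ankrd1* and -1.55 for *Cdkn1a*.

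**Figure D4:**
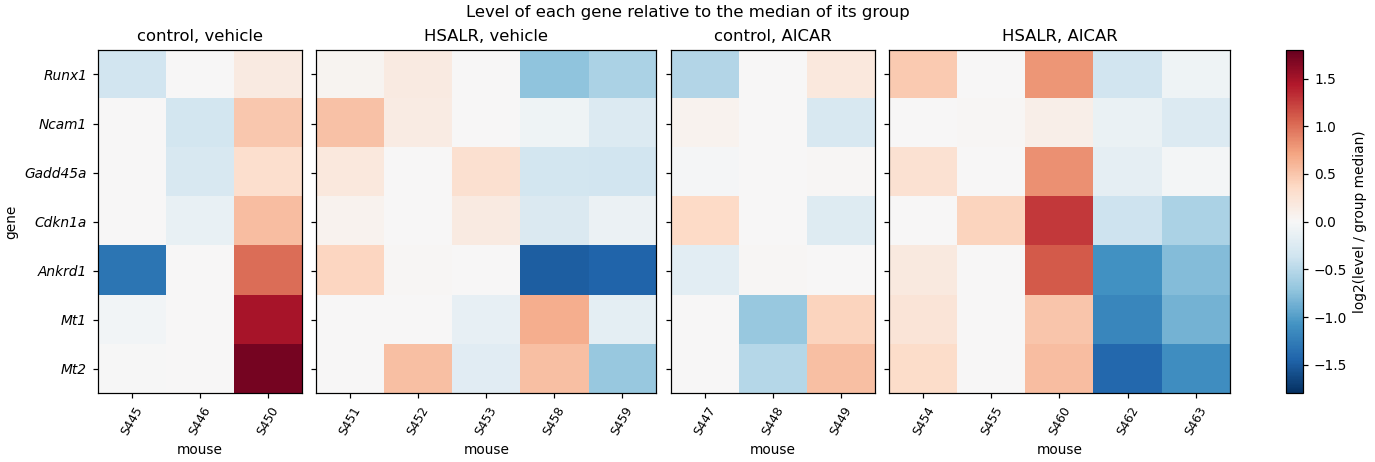
Level of each of the 7 genes (rows) in each mouse (columns, by identifier) relative to the median of its own group, as log2 ratio (colour). S450 and S460 are at or above the other mice of their groups for all 7 genes, and S458 and S459 lie at -1.49 and -1.44 for *Ankrd1*.

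Endothelial markers moved with the genotype beside the 5 genes: after vehicle all 4 (*Pecam1*, *Cdh5*, *Kdr*, *Tie1*) were lower in HSALR mice (11.5% of all genes). Their sum was 234 to 261 normalized CPM in control and 156 to 204 in HSALR mice. After AICAR 2 of the 4 were lower (9.64% of all genes), with sums of 241 to 262 and 195 to 213. Within HSALR muscle 2 of the 4 were higher after AICAR (median 0.25, against 13.7% of all genes higher), beside the lower *Gadd45a*, *Cdkn1a* and *Ankrd1*. Of the 6 muscle fibre markers, 2 were higher and 1 lower in HSALR than in control mice after either treatment. Of all genes, 15.4% were higher and 11.5% lower after vehicle, and 12.2% and 9.64% after AICAR. Smooth muscle markers summed to 152 to 243 and 117 to 157 after vehicle, with 2 of 4 lower (11.5% of all genes). After AICAR they summed to 132 to 198 and 106 to 129, with 1 of 4 lower (9.64% of all genes). Fibroblast markers summed to 1306 to 1689 and 1236 to 1657 after vehicle with none changed. In HSALR muscle 3 of 5 were lower after AICAR (13.0% of all genes), where the sum was 959 to 1285. Adipocyte markers, none of which passed the test in any contrast, summed to 97.1 to 157 and 77.8 to 203 after vehicle and to 45.5 to 204 and 121 to 224 after AICAR. All 6 epidermal markers were lower after AICAR in HSALR muscle (13.0% of all genes), where 5 were at 0 in at least 1 mouse. No marker of the other lists was at 0 in any mouse, apart from the leukocyte marker named above. The part of these cells in the levels of the 7 genes was not tested beyond the epidermis score.

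For each of the 7 genes, the 3 genes with the most similar pattern over the 16 mice were found among 13000 genes with a mean count of at least 50, as the smallest root mean square difference of centred log2 levels; these values are descriptions. The nearest to *Runx1* were *Cgref1* (0.416), *Musk* (0.470) and *5930438M14Rik* (0.476), with an SD of 0.986 for *Runx1* itself. *Ncam1* was nearest to *Zscan18* (0.215), *Wdyhv1* (0.216) and *Tec* (0.217), and *Gadd45a* to *Rnf115* (0.211), *Tnfrsf22* (0.216) and *Enah* (0.221). *Cdkn1a* was nearest to the gene with Entrez identifier 231570 (0.261), which had no symbol in the annotation used, *Gadd45a* (0.336) and *Il20rb* (0.345). *Ankrd1* had the most distant neighbours in relation to the first 4 genes: *Rrad* (0.598), *Dtl* (0.609) and *Timp1* (0.613), with an SD of 1.44 for *Ankrd1*. *Mt1* and *Mt2* were each other's nearest gene (0.375), followed by *Odf3l2* (0.556) and *Slc35g1* (0.576) for *Mt1* and *1700001L05Rik* (0.737) and *Slc35g1* (0.754) for *Mt2*.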

How the data were processed

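RNA-seq was performed on *gastrocnemius* muscle of 16 mice. Per the paper's methods and the labels, the authors aligned single-end reads to mm10 with STAR 2.5.2a, keeping 1 location for equally good hits, and counted reads that start in any RefSeq exon with QuasR. The deposited values are whole-number counts for 24454 genes with the gene length, and only these were used. Of the identifiers, 24374 matched RefSeq GRCm38.p6 and 80 did not. Groups came from the genotype and treatment labels, and mice were separate animals.

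Counts were analysed with edgeR 4.0.16 in R 4.3.3: TMM scaling (factors 0.906 to 1.06), filterByExpr, and the quasi-likelihood test in 1 model of the 4 groups over all 16 libraries with 12 residual degrees of freedom. Benjamini-Hochberg adjustment ran over the 15487 genes tested, with a threshold of 0.05. Normalized CPM was computed with the TMM-scaled library size, and RPKM divides it by the deposited gene length. The *Mt1* share was tested with exact permutation tests (scipy 1.17.1). Likeness used log2 CPM with a prior count of 0.5. The code was tested on simulated data. Alternatives were DESeq2 1.42.0, limma 3.58.1 voom, other scalings and filters, an epidermis score, and leaving out each mouse. The 7 genes and all lists were chosen with earlier results of these data known. Of each related list, the text gives the values of at most the 4 genes with the smallest adjusted p among those that passed the test in at least 1 contrast; other members are named only to say what a list holds.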

Additional observations from a re-analysis of the deposited data

Results flagged for a closer look

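*Mt1* in the vehicle-treated HSALR mouse S458 stood apart from its group at 10.4 normalized CPM, against 5.85 to 6.64 in the other 4 mice. The same mouse had *Mt2* at 8.99, which was within the range of its group (3.88 to 9.05). Of the 16 sets of 5 values checked in this way, those of the 7 genes and the *Mt1* share in both HSALR groups, 1 held such a value, against 0.8 expected by chance at 1 in 20.

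The AICAR effect on *Runx1* differed between genotypes by a log2 value of -1.85 (HSALR minus control; interaction term of edgeR's model, adjusted p = 0.0355). It was 1.68 in control muscle, where 3 of 3 AICAR-treated mice were above all vehicle-treated mice, and -0.17 in HSALR muscle, where the treatments overlapped. The call was lost in 12 of 16 fits that left out a mouse (adjusted p between 0.0544 and 0.116). It was also lost with limma voom (-1.84, adjusted p = 0.0808) and with the epidermis score (-1.79, adjusted p = 0.0761). Over the 16 fits that left out a mouse the difference was -2.03 to -1.69.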

How the results depend on the processing

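Of the 378 member fold changes under another tool, scaling, filter or model, 360 kept their direction and side of the threshold, as did 306 of 336 with a mouse left out. The *Mt1* share passed the threshold in none of its 40 alternatives, which says nothing of its stability, since part of these could not have passed. The number of the 7 genes higher in HSALR muscle after AICAR, 1 in the text, was 4 with DESeq2 (*Runx1*, adjusted p = 0.0367, *Gadd45a*, 0.027, and *Cdkn1a*, 0.049, in addition). It was 2 with upper-quartile scaling, and 1 to 4 with a mouse left out (4 without S462, 2 without S463). Of all genes, 3379 of 15487 were called in either direction in the text's fit, 3986 of 19992 with DESeq2 and 3436 with upper-quartile scaling. Without S462 this was 2874 of 15474, and without S463 it was 2782 of 15475. The number with differing AICAR effects, 1 in the text, was 0 with limma voom and with the epidermis score, and 0 to 2 with a mouse left out. Over all genes this was 107 in the text's fit, 84 with voom, 59 with the epidermis score and 15 to 371 with a mouse left out. For AICAR in HSALR muscle the number of the 7 genes called, 5 in the text, was 4 with the epidermis score. It was 6 with scaling to *Tbp* or without S459. Over all genes, 4121 were called in this contrast in the text's fit, 2154 with the epidermis score, 2768 with *Tbp* and 3660 without S459. The cause of these changes was not tested. Directions that turned were all of fold changes that did not pass the test. *Mt1* between genotypes after AICAR was -0.0032 with DESeq2, -0.055 with voom, -0.0026 with RLE scaling and -0.0153 with scaling to *Tbp*, and its interaction was -0.0405 with voom and -0.1288 with *Tbp*. *Ankrd1* under AICAR in control muscle was 0.0167 with voom. With *Tbp*, *Mt1* after vehicle was 0.1135, and under AICAR in control muscle *Ncam1* was 0.063 and *Gadd45a* 0.0514. Scaling to *Tbp* moved the median of all genes by up to 0.32 in size (interaction, -0.32). With a mouse left out, ranges that crossed 0 were -0.2304 to 0.282 (*Mt1*) and -0.0826 to 0.4628 (*Mt2*) between genotypes after AICAR, -0.4356 to 0.5121 (*Mt1*) after vehicle, -0.5014 to 0.461 (*Mt1*, interaction), and -0.3322 to 0.0822 (*Ncam1*) and -0.6589 to 0.4338 (*Ankrd1*) for AICAR in control muscle. With 3 control mice per treatment, the *Mt1* share could not reach an exact p under 0.1 for AICAR in control muscle. No paired analysis was possible because no replicate numbers were shared between groups.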

Other observations

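AICAR-treated HSALR mice were not compared with vehicle-treated control mice by a test, and their levels are given as ratios of group means only. *Ncam1* was 1.73 and *Runx1* 5.17 times the vehicle-treated control mean, and all 5 mice were above all 3 controls for both genes. *Gadd45a* was at 1.34, *Cdkn1a* at 1.35 and *Ankrd1* at 1.77 times that mean, and for each of these 3 genes 2 of the 5 mice were above all controls and the groups overlapped. *Mt1* was at 6.09 and *Mt2* at 11.0 times that mean, without overlap. How many of all genes show no overlap in this pair of groups is not given.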
